A study of Mus musculus with 419 samples.

Results

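Heat shock chaperones are proteins that fold, hold or disassemble other proteins, and they are abundant in unstressed cells as well as after heat. The genes described here were chosen by name: Hspa8, Hsph1, Hsp90aa1, Hsp90ab1, Hspa5, Hspd1, Hspe1, Dnaja1 and Hsf1. The genes lie on chromosomes 1 (Hspd1 and Hspe1), 2, 4, 5, 9, 12, 15 and 17, at the mm10 positions given with each below. All 9 genes were found, as 58 transcript rows among the 116824 rows that matched the GENCODE vM21 annotation, and all 9 were among the 11260 autosomal genes measured for both alleles. The cells were 419 single embryonic stem cells of the female mouse line F1-21.6 in G1 phase, a hybrid with 1 chromosome set from strain 129Sv (called 129 below) and 1 from Cast/EiJ (called CAST). They were grown with serum and leukemia inhibitory factor on laminin, without feeder cells and with no treatment named, and their total RNA was sequenced along the full transcript with RamDA-seq. All cells come from 1 line and no separate cultures are named, so they form 1 sample, and each cell offers its own comparison of 129 with CAST. No test across cells was made. The spread given with a share is the SD over 5 sequencing lanes, which hold 88, 83, 82, 80 and 86 cells and are technical subsets.

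The deposited value is a score, an allele estimate that the authors scaled and rounded, and it is given here per cell. Totals over both alleles ranged from 698363 to 1477656 per cell, with a median of 925852, and the depth in reads is unknown. The 13 naive and core pluripotency markers were found, and none was at 0 in the median cell. Their summed score was 26.3 in the lowest cell, 3653 in the median cell and 6945 in the highest. The lowest cell stood apart from the rest, and results without it and without 10 cells of unusual total are given with the alternatives. Of 7 fibroblast markers, Col1a1, Col1a2, Col3a1, Lum and Dcn were at 0 in the median cell, and Thy1 and Postn were above 0. The summed fibroblast list ranged from 0 to 2712.

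In the cytosol, HSP70 proteins such as HSC70 bind exposed hydrophobic stretches, J-domain proteins bring them substrates and HSP110 proteins exchange their nucleotide. HSP90 proteins act later, on kinases, receptors and other client proteins. The endoplasmic reticulum and the mitochondrion each keep their own chaperones, and the transcription factor HSF1 binds arrays of the unit GAA and its reverse complement TTC at heat shock genes.

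Promoter sequence was available for 5 of the 9 genes, from RefSeq on GRCm38.p6, as 9 windows of 300 bases around the annotated starts. Hspa8, Hsp90aa1, Hsp90ab1 and Hsf1 had no entry. The windows of Hspe1 and Hspd1 are shown first because both genes start in the same stretch of chromosome 1, in opposite directions. The Hspe1 window lies at chr1:55087898-55088197 on the plus strand, and 285 of its bases also belong to a Hspd1 window at chr1:55087883-55088182 on the minus strand. The capitals mark 4 alternating units, TTC and GAA by turns, each 2 bases from the next.
Hspe1 promoter: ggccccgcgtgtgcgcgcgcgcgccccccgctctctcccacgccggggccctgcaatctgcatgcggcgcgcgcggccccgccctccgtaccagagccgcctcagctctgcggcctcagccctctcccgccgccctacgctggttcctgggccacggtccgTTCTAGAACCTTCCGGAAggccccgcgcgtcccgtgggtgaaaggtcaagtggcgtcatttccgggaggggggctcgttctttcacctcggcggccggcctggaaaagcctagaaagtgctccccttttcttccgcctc

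The match begins 89 bases before the Hspe1 start. On the other strand the same bases begin 144 bases before the Hspd1 start that lies within the overlapping window. The other Hspd1 window, at chr1:55088194-55088493, held neither TTCNNGAA nor GAANNTTC. In GENCODE the main Hspd1 transcript, ENSMUST00000027123, starts at 55088024. The array of 4 units starting with TTC reads the same on both strands. Arrays of 4 units, starting with either TTC or GAA, were found in 8 of 32851 promoter windows, or 0.0244%. Those windows belong to 8 genes, which include Hspd1, Hspe1 and Chordc1, a gene for an HSP90 co-chaperone. The pairs of units TTCNNGAA and GAANNTTC were common, in 8.52% and 7.86% of windows, and also lie inside the longer arrays.

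Hsph1 carries shorter arrays. Its minus-strand window at chr5:149636287-149636586 holds 1 TTCNNGAA and, after the start, 1 array of 3 units, both in capitals. Arrays of 3 units, TTCNNGAANNTTC on either strand, occurred in 0.603% of windows.
Hsph1 promoter: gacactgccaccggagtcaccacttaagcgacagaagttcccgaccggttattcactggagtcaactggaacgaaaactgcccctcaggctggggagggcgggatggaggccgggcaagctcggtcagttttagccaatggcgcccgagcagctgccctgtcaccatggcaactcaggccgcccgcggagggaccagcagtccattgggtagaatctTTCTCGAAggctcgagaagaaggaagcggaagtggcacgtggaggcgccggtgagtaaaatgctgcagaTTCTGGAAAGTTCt

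The Hspa5 window is shown because its capitals mark the letters of the endoplasmic reticulum stress element, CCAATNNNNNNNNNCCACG, which begins 65 bases before the start. It lies at chr2:34771840-34772139 on the plus strand. The element was found in 39 of 32851 windows, or 0.119%, and neither TTCNNGAA nor GAANNTTC was found in this window.
Hspa5 promoter: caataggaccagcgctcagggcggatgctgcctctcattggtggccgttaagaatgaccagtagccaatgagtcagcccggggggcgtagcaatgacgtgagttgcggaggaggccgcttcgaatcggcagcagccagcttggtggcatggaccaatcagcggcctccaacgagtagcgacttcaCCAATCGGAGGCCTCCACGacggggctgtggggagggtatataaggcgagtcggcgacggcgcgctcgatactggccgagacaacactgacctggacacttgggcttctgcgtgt

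Of the 3 Dnaja1 windows, the one at chr4:40722218-40722517 on the plus strand held 1 GAANNTTC, 124 bases before the start. A match is a description of letters and not a measured binding site.

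Hspa8 and both cytosolic HSP90 genes had the highest levels among the members, and Dnaja1 and Hsf1 the lowest. Per kilobase of transcript, the mean scaled score was 3526 ± 66.0 for Hspa8, 1986 ± 41.8 for Hsp90aa1 and 1885 ± 21.8 for Hsp90ab1 (SD over 5 lanes). Hspa5 reached 271 ± 19.0, Hspd1 231 ± 3.02, Hspe1 176 ± 7.17, Hsph1 124 ± 4.46, Dnaja1 57.5 ± 7.41 and Hsf1 13.9 ± 0.798 per kilobase. In this order per kilobase, no neighbours overlapped in their lane means, so it was the same in every lane. Without division by length the order differed: the mean scaled score was 4950 for Hsp90aa1 and 4452 for Hspa8. It was 484 for Hspd1, 368 for Hspa5, 355 for Hsph1 and 136 for Hspe1. Whether the deposited score already accounts for length is not known. The lane means ran from 1947 to 2046 per kilobase for Hsp90aa1 and from 1848 to 1902 for Hsp90ab1, and from 246 to 298 for Hspa5 and from 227 to 235 for Hspd1. The order of Hsp90aa1 and Hsp90ab1 in scaled score differed between the groups of cells described with Hsp90aa1 below. Every cell held a value of every member.

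The shares of the 2 alleles were near balance for most members and leaned to CAST in 8 of 9. Over all rows of a gene, the pooled 129 share was 50.9% ± 3.10 for Hspa5, 48.9% ± 1.1 for Hspd1, 48.4% ± 0.522 for Hsp90ab1 and 48.1% ± 1.14 for Hspe1. It was 46.3% ± 1.23 for Dnaja1, 45.3% ± 1.62 for Hspa8 and 44.6% ± 5.31 for Hsf1. The lowest shares were 37.1% ± 0.816 for Hsph1 and 33.0% ± 0.442 for Hsp90aa1. From Hspa5 to Hsf1 the lane ranges of neighbours overlapped, so their order is not fixed by these data. The lane range of Hsph1, 36.2% to 38.4%, met that of Hsf1 at its lower end of 38.3%, and that of Hsp90aa1, 32.5% to 33.5%, met none. The median over members was 46.3%, beside 50.1% over all measured genes, of which 49.3% were under 50%.

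A 2-fold difference was set as the limit for naming a gene uneven. Hsp90aa1 passed it on the CAST side as 1 of 9 members, where 5.4% of all genes did, and 0 of 9 passed on the 129 side, where 3.61% did. Hsp90aa1 lay close to the limit: it passed in 3 of 5 lanes, and it did not pass with its main row alone, at 34.4%, or with the mean of the shares per cell, at 36.0%. Rows are named by their Ensembl transcript. Single rows with a pooled score of at least 1000 and allele information were also counted. On the CAST side 5 of 39 member rows passed, or 12.8%, beside 5.87% of all such rows. On the 129 side 1 of 39 passed, or 2.56%, beside 4.52%. Of the 5 rows, 2 were of Hsph1, 2 of Hsp90aa1 and 1 of Hsp90ab1. Hsp90aa1 lies on distal chromosome 12, where 59.9% of the other measured genes passed on the CAST side. The rows of a member often differed from each other in share. In 3 of the 7 members with at least 2 such rows, Hsph1, Hsp90aa1 and Hsp90ab1, the shares differed by 30 points or more. This held for 7.05% of the 4952 genes with at least 2 such rows. A range can only widen with more rows, and these members had 6, 5 and 6 of them. In Hsp90ab1 the ends of the range were ENSMUST00000145205 at 31.7% ± 11.0 and ENSMUST00000166469 at 62.4% ± 18.3, which held 0.125% and 0.104% of its value. In Hsp90aa1 the upper end was ENSMUST00000129005 at 73.0%, with 0.0731% of the value, followed by ENSMUST00000155242 at 49.4%, with 0.200%.

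**Figure D1:**
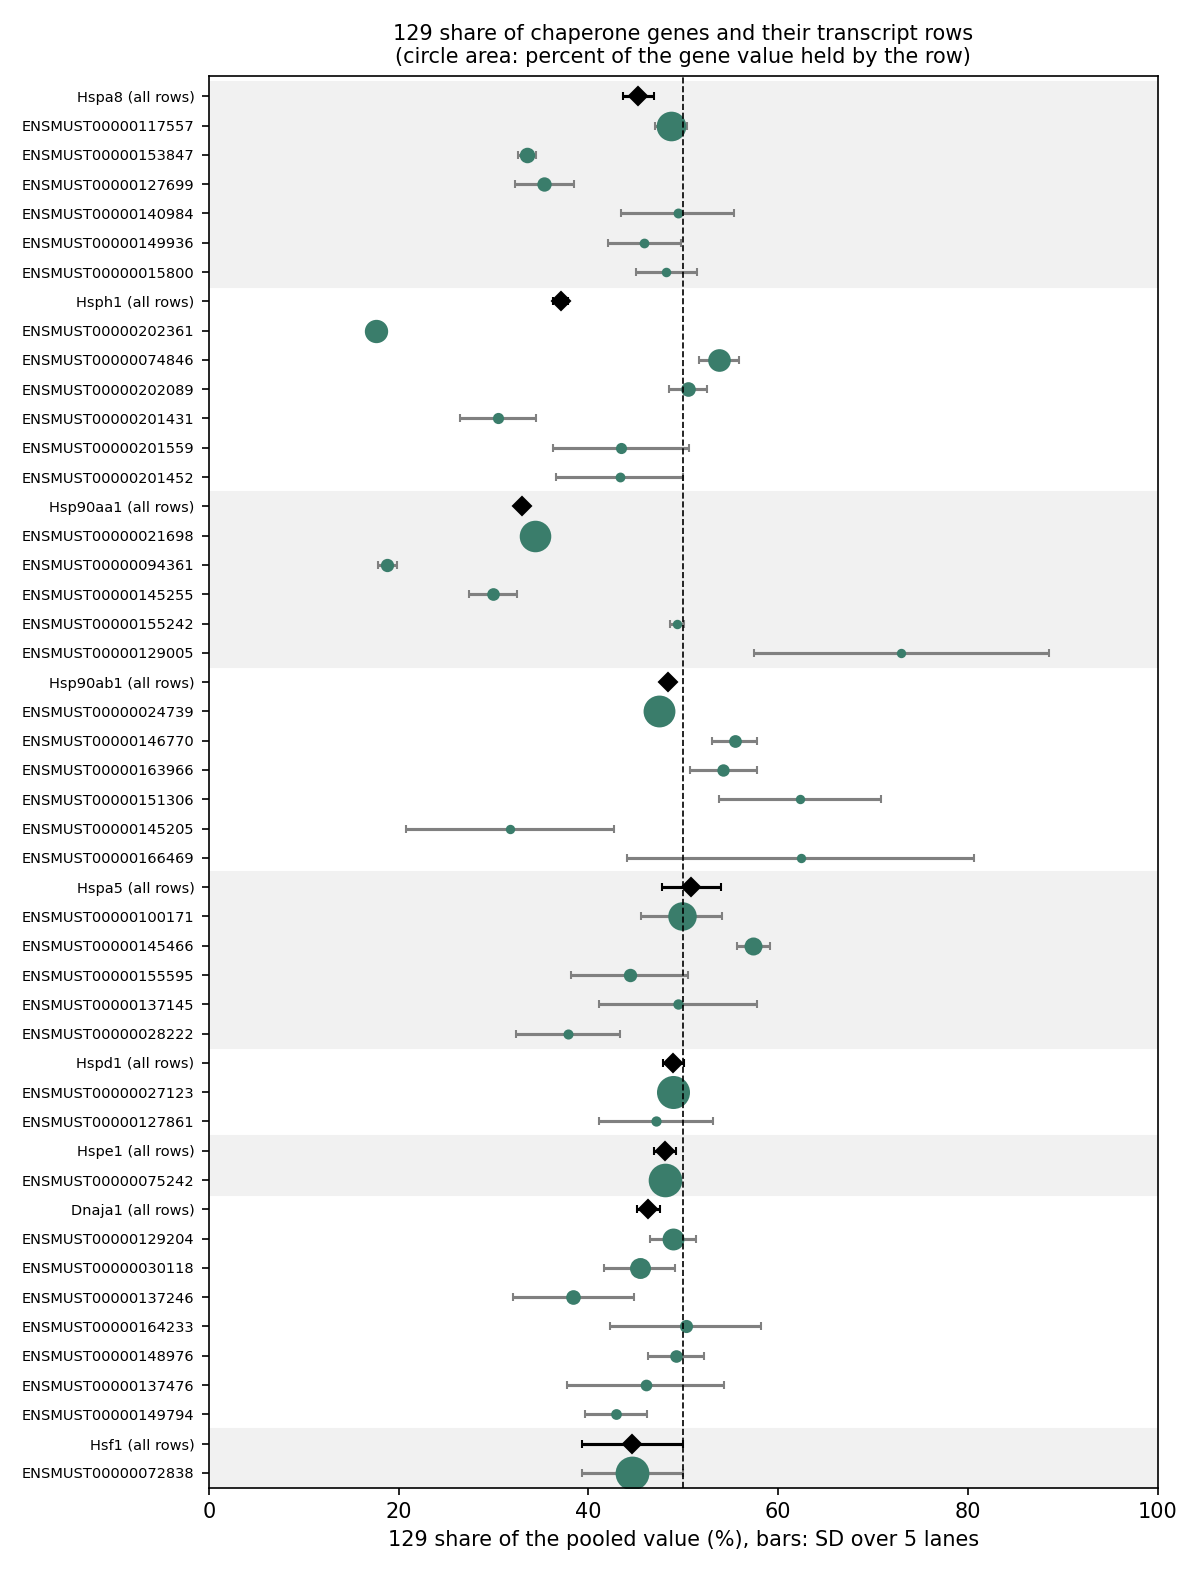
The plot gives the pooled 129 share in percent for each chaperone gene (diamonds) and for each of its transcript rows with a pooled score of at least 1000 and allele information (circles, area by the percent of the gene's value that the row holds), with bars for the SD over 5 lanes. Most symbols lie near the dashed line at 50%, while ENSMUST00000202361 lies at 17.6% and ENSMUST00000094361 at 18.8%.

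Hsph1, the inducible HSP110 that acts as a nucleotide exchange factor of HSP70, lies at 149614287 to 149636376 on chromosome 5 and held a wide contrast between its abundant rows. Its row with the highest score, ENSMUST00000202361, held 41.8% of the gene's value. In single cells it had a score of 0, 12 and 173 from the 129 allele (lowest, median and highest cell), against 0, 112 and 386 from the CAST allele. The CAST value was the higher in 379 cells and the 129 value in 35, although the ranges overlapped. The pooled 129 share was 17.6% ± 0.551, a log2 ratio of 129 over CAST of -2.23.

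The next Hsph1 row did not lean that way. ENSMUST00000074846, with 38.9% of the value, had 0, 68 and 236 from 129 in the lowest, median and highest cell, against 0, 55 and 260 from CAST. Its 129 share was 53.8% ± 2.06, and the 129 value was the higher in 239 cells against 175 for CAST. ENSMUST00000202089, with 11.1%, was at 50.5% ± 2.01. The remaining rows above the limit, ENSMUST00000201431, ENSMUST00000201452 and ENSMUST00000201559, held 0.82% to 3.23% of the value each and had shares of 30.4% to 43.4%. The gene's lean to CAST therefore sat mostly in ENSMUST00000202361: the ratio of ENSMUST00000202361 to ENSMUST00000074846 was 0.352 from 129 and 1.92 from CAST.

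These rows are built from nearly the same bases on the minus strand of chromosome 5. ENSMUST00000202361 runs 301 bases further in the 3′ direction than ENSMUST00000074846 and 625 bases further than ENSMUST00000202089, and it shares the start of ENSMUST00000202089. Of its windows of 50 bases, 8.02% were found in no other row of the gene, against 1.54% for ENSMUST00000074846. Across the 419 cells, the CAST value of ENSMUST00000202361 and the 129 value of ENSMUST00000074846 went together with a Spearman rho of 0.48, while both rows from 129 gave a rho of 0.00 and both from CAST one of 0.03. These rows share bases, cells and scaling, so the correlation describes the estimates as deposited. Whether the contrast between the rows lies in transcripts or in how reads were divided among them was not tested. No window of 50 bases in any Hsph1 row occurs in another annotated gene.

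**Figure D2:**
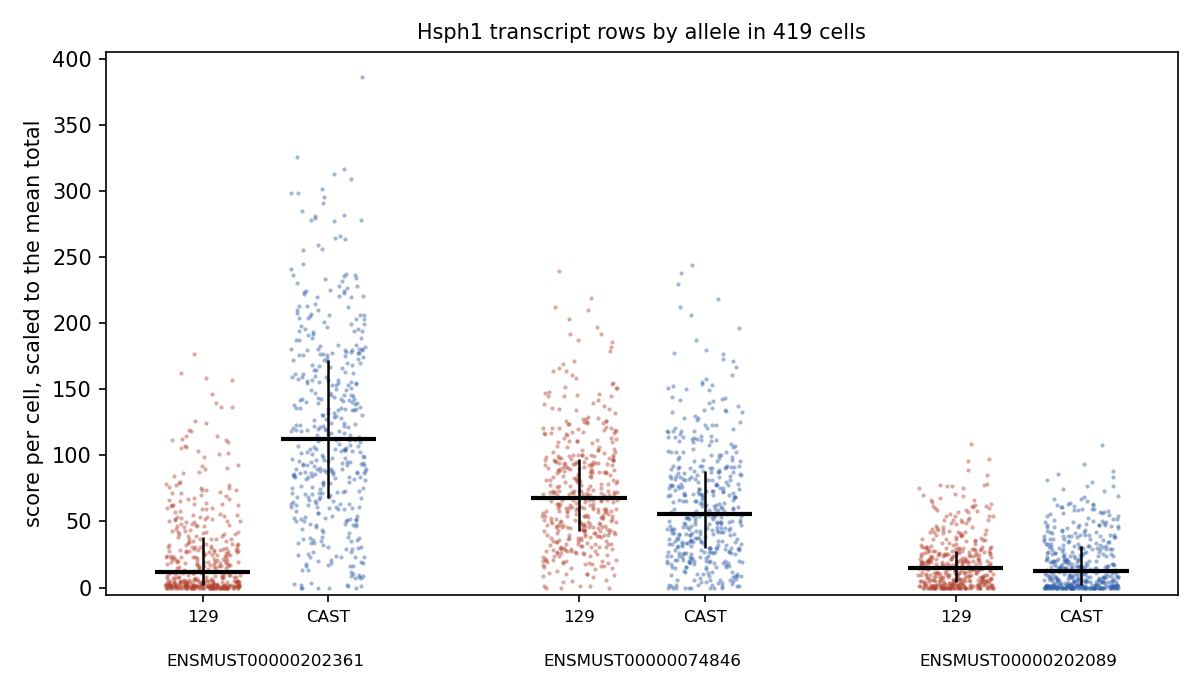
The plot gives the score per cell, scaled to the mean total, of 3 Hsph1 rows from the 129 allele (left of each pair) and the CAST allele (right of each pair) in 419 cells, with a bar at the median and a line over the quartiles. ENSMUST00000202361 is low from 129 and high from CAST, while both alleles of ENSMUST00000074846 and of ENSMUST00000202089 cover the same range.

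Hsp90aa1, the inducible cytosolic HSP90, was the only member past 2-fold over all rows. It had a score of 13, 1569 and 3652 from 129 in the lowest, median and highest cell, against 63, 3646 and 8118 from CAST. The CAST value was the higher in 316 of the 419 cells. Its main row ENSMUST00000021698 held 85.5% of the value at 34.4% ± 0.627. ENSMUST00000094361, which ends 423 bases further 3′, was at 18.8% ± 1.04, and the retained-intron row ENSMUST00000145255 at 29.9% ± 2.55. ENSMUST00000129005, at 73.0% ± 15.6, held under 0.1% of the value.

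The Hsp90aa1 share followed that of its chromosome. The gene lies at 110690605 to 110702728 on chromosome 12 (mm10), in the part beyond 80 Mb, where 212 other measured genes had a median 129 share of 31.4% and 59.9% passed 2-fold on the CAST side. In the 295 cells in which these other genes together were under 35% 129, Hsp90aa1 was at 28.5%. In the 117 cells in which they were between 42% and 58%, it was at 53.5%. Single cells ran from 0.366% to 43.2% in the lower range, against 44.0% to 77.2% in the middle range, so the ranges of cells did not overlap.

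The difference lay in the CAST score. The scaled 129 score of Hsp90aa1 averaged 1636 in the 295 cells and 1634 in the 117 cells, and the CAST score 4106 and 1423, a ratio of 2.89. The summed CAST score of the other distal genes differed 2.74-fold and their summed 129 score 0.972-fold, and the median ratio over single genes was 2.66 for CAST and 1.02 for 129. Over both alleles Hsp90aa1 was 1.88-fold higher in the lower range, at 5743 ± 1277 against 3057 ± 872 (SD over cells). Hsp90ab1, on chromosome 17, had 129 shares of 48.6% and 47.9% in the same groups of cells. It averaged 3544 and 3611 there, below Hsp90aa1 in the lower range and above it in the middle range. The levels of the members on other chromosomes differed by ratios between 0.800 and 1.06, the lowest being Hspa5 with means of 343 and 428. Within the ranges, the Hsp90aa1 share was nearly unrelated to the distal share, with rho of 0.10 over 295 cells and -0.07 over 117.

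**Figure D3:**
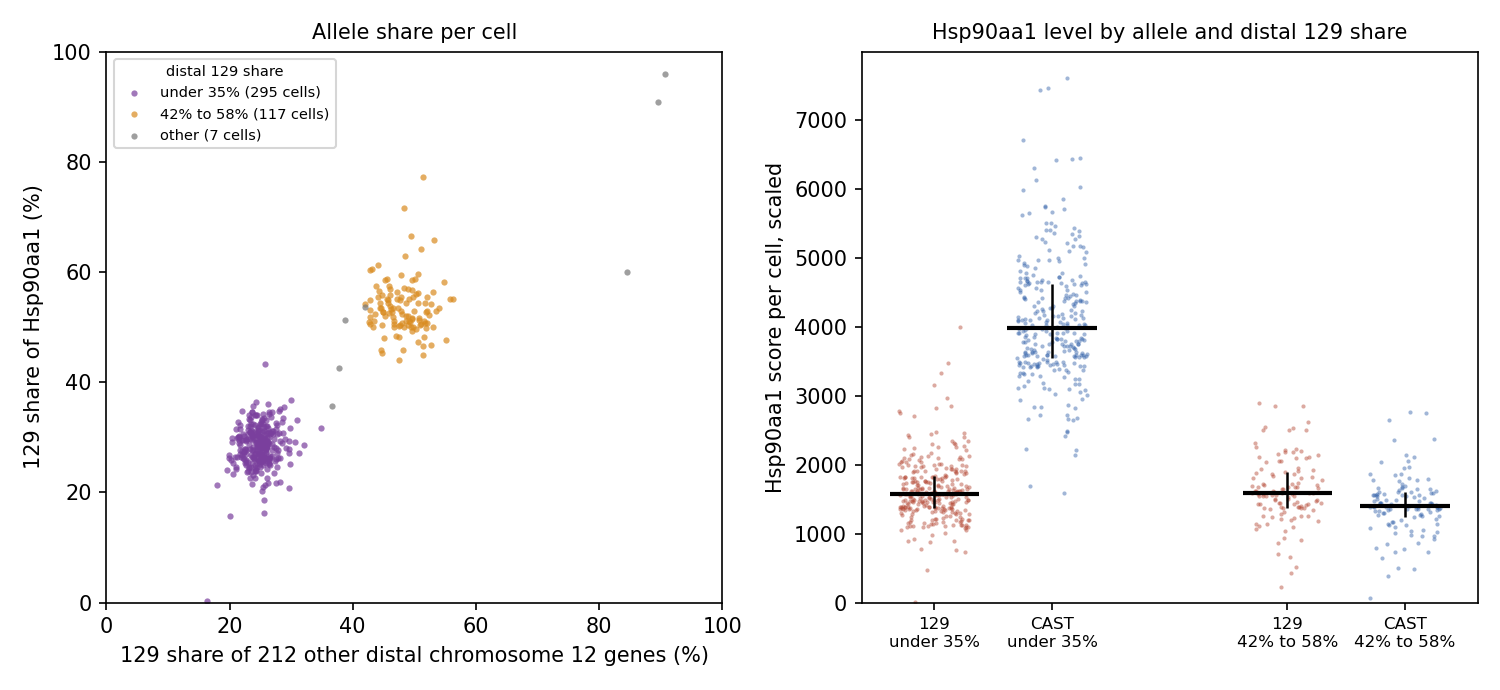
The left plot gives the 129 share of Hsp90aa1 against that of 212 other distal chromosome 12 genes, both in percent, for each of 419 cells; the right plot gives the scaled Hsp90aa1 score per cell by allele, 129 left of CAST, in the cells under 35% and in those of 42% to 58%, with medians and quartiles. The 2 clouds do not overlap in the Hsp90aa1 share, and of the 4 columns only CAST in the cells under 35% stands high.

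Hsp90ab1, the constitutive cytosolic HSP90, lies at 45567775 to 45573271 on chromosome 17 and had the least variation between cells among the members. It had a score of 21, 1715 and 3983 from 129 in the lowest, median and highest cell, against 3, 1852 and 2594 from CAST, and in 79.0% of cells the alleles differed by at most 10% of their sum. Its main row ENSMUST00000024739 was at 47.5% ± 0.511. The shorter rows ENSMUST00000146770, a retained intron, and ENSMUST00000163966, annotated for nonsense-mediated decay, leaned the other way at 55.4% ± 2.36 and 54.2% ± 3.54.

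Hspa8, at 40800984 to 40805200 on chromosome 9, encodes the constitutive HSP70 called HSC70. It had a score of 0, 2078 and 4902 from 129 in the lowest, median and highest cell, against 31, 2425 and 5743 from CAST. Its protein-coding rows together were near balance at 48.7% ± 1.67. The lean to CAST lay mostly in its other rows, which held 25.5% of the value at 35.3% ± 1.39. The largest of these were ENSMUST00000153847 at 33.5% ± 0.958 and the retained-intron row ENSMUST00000127699 at 35.4% ± 3.10. The small nucleolar RNA genes Snord14c, Snord14d and Snord14e lie in introns of Hspa8, and their bases are exonic in ENSMUST00000149936 alone, which held 0.70% of the value at 45.9% ± 3.88. Of the 50-base windows of ENSMUST00000117557, 86.3% occur in other annotated genes, led by Gm15459, Gm26825 and Gm8355, so reads could have been split among copies. It was 91.2% for ENSMUST00000153847 and 60.2% for ENSMUST00000127699, and all 3 shares are uncertain.

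Hspa5 encodes BiP, the HSP70 of the endoplasmic reticulum, and lies at 34771970 to 34777547 on chromosome 2. It had a score of 2, 160 and 1052 from 129 in the lowest, median and highest cell, against 2, 154 and 803 from CAST. Its main row ENSMUST00000100171 was even at 49.8% ± 4.29. The retained-intron row ENSMUST00000145466, with 21.1% of the value, was at 57.4% ± 1.75, and its share was nearly fixed: the quartiles of the cells were 56.5% and 57.4%, and 391 of 419 cells had the higher value from 129. In ENSMUST00000100171 the quartiles of the cells were 31.7% and 68.2%. Across cells, each allele of ENSMUST00000145466 had a rho of 0.49 to 0.51 with either allele of ENSMUST00000100171. Whether so constant a split reflects the alleles or how reads were assigned was not tested. ENSMUST00000145466 also enters the share, noise and allele correlation given for the gene.

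Hspd1 and Hspe1 encode HSP60 and HSP10, the chamber and lid of the mitochondrial chaperonin, and their annotated transcripts overlap by 112 bases on opposite strands of chromosome 1, at 55077835 to 55088243 for Hspd1 and 55088132 to 55091307 for Hspe1. Hspd1 ranged from 3 to 574 from 129 and from 1 to 752 from CAST, with means of 236.8 and 247.2. Hspe1 had 0 in the lowest cell and 65 in the median cell from 129, against 0 and 71 from CAST. Both genes were close to balance in nearly all of their value, since ENSMUST00000027123 held 94.8% and ENSMUST00000075242 98.8%. Of the windows of these rows, 44.8% in each occur in other annotated genes, among them Hspd1-ps3 for Hspd1 and Hspe1-ps2 for Hspe1, and the shares are uncertain to that extent. For Hsp90aa1 it was 65.6% of its main row and for Dnaja1 30.6% of the coding row ENSMUST00000030118, against 4.49% for Hsp90ab1 and 0% for Hspa5 and Hsf1.

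Dnaja1 encodes a J-domain co-chaperone of HSP70, and lies at 40722150 to 40737149 on chromosome 4. Hsf1 encodes the transcription factor and lies at 76477445 to 76500972 on chromosome 15. Dnaja1 had a score of 1, 50 and 188 from 129 in the lowest, median and highest cell, against 3, 58 and 187 from CAST. Its value was spread over 7 rows above the limit, led by ENSMUST00000129204 at 48.9% ± 2.44 and ENSMUST00000030118 at 45.4% ± 3.71, with ENSMUST00000137246 lowest at 38.4% ± 6.37. Hsf1 was read from a single row, ENSMUST00000072838, at 0, 12 and 50 from 129 and 0, 14 and 61 from CAST. Its level over both alleles was low but present in every cell, from 4 to 61. The 129 value was 0 in 124 cells, the CAST value was 0 in 84, and the alleles were equal in 114.

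Some cells read a member almost wholly from 1 allele. Over the 8 members without Hsf1 there were 42 instances of a gene in a cell with a 129 share under 10% or above 90%. In 14 of them the median gene of the same chromosome in the same cell was also on that side, beyond 20% or 80%. This held for all 4 such cells of Hsp90ab1 and for 3 of 8 of Hspa8, against 2 of 14 of Hspd1 and 0 of 4 of Hspa5.

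Variation between cells was then split by allele. Intrinsic noise is the part that sets the 129 value of a cell apart from its CAST value, and shared noise the part common to both. Both include capture and amplification. Intrinsic noise falls with the mean level, so each gene was set against the running median of genes of like mean, and the residual is the log2 distance from it. Residuals were measured for 7332 genes and for all 9 members, where 6 lay above 0 and 3 below.

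The highest residuals were 1.53 for Hspd1 and 1.48 for Hspa5, at the 98.2 and 98.1 percentiles of all genes. Hsf1 was at 0.83, Hsph1 at 0.42, Hsp90aa1 at 0.37 and Hspa8 at 0.12. The value of Hsp90aa1 holds the difference between the chromosome 12 ranges: its intrinsic noise was 0.0171 within the 295 cells and 0.0164 within the 117 cells, against 0.0885 over all cells. With all genes refitted within each range, its residual was -1.95 in the 295 cells and -2.06 in the 117 cells. In those refits 5 members lay above 0 in the 295 cells and 4 in the 117 cells, and Hspa8 was at 0.39 and -1.11. The lowest were -1.39 for Hspe1, -1.21 for Hsp90ab1 and -0.86 for Dnaja1. Hspd1 and Hspe1, whose starts lie in 1 stretch, thus had residuals on opposite sides, and each stayed on its side in all 5 lanes, with ranges of 1.45 to 1.84 for Hspd1 and -1.63 to -0.97 for Hspe1. The sign of Hspa8 was positive in 3 of 5 lanes only. Hspa8, Hsp90aa1 and Hsp90ab1 exceed nearly all genes in level, and they were set against the most abundant genes, whose median level was 580. The 35 genes with a mean of at least 1000 had a median intrinsic noise of 0.0363, beside 0.0297 for Hsp90ab1, 0.0748 for Hspa8 and 0.0885 for Hsp90aa1.

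**Figure D4:**
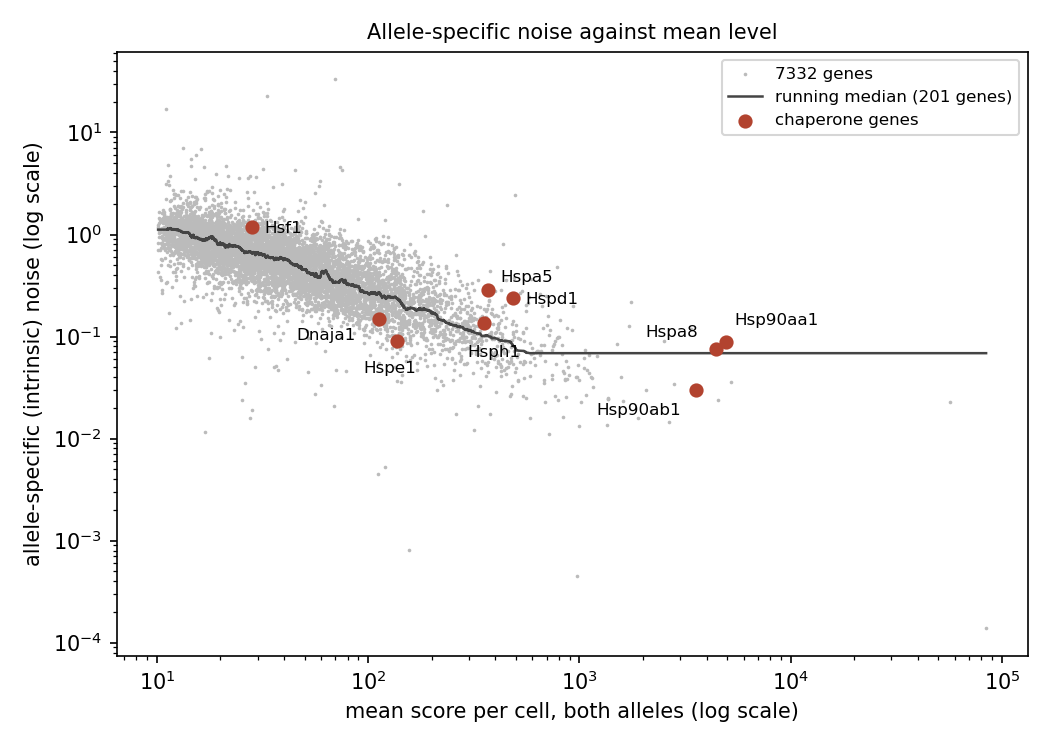
The plot gives allele-specific noise against the mean score per cell over both alleles, both on log axes, for 7332 genes, with the running median as a line and the chaperone genes as labelled points. Hspa5 and Hspd1 lie above the line, while Hspe1, Dnaja1 and Hsp90ab1 lie below it.

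How far the alleles of a member went together differed widely between members. The rho between 129 and CAST over 419 cells was 0.44 for Hsp90ab1, 0.40 for Hsp90aa1, 0.38 for Hspa8, 0.32 for Hsph1 and 0.29 for Hspa5. It was 0.17 for Dnaja1, 0.04 for Hspe1, -0.36 for Hspd1 and -0.67 for Hsf1, and its median over all genes was -0.10. That median was higher among abundant genes, at 0.17 for a mean of at least 200 and 0.50 for a mean of at least 1000. Hsp90ab1, Hsp90aa1 and Hspa8 were below 0.50, and Hspd1, with a mean of 484, was below 0.17. For Hspd1 and Hsf1 the alleles thus ran against each other, and their shared noise was -0.062 and -0.469. Their high residuals went with negative shared noise, while the high residual of Hspa5 went with a shared noise of 0.146. Alleles share the cell, the scaling and the step that assigned reads to them, and the part of these was not tested.

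Hspa5 varied most between cells in level. Its score over both alleles was 4 in the lowest cell, 333 in the median cell and 1513 in the highest, a coefficient of variation of 53.9%. Hsph1 followed with 37.1%, then Hsf1 with 34.5%, Hsp90aa1 with 34.3%, Dnaja1 with 33.1%, Hspa8 with 24.7%, Hspd1 with 24.1%, Hspe1 with 23.1% and Hsp90ab1 with 14.1%. Within the chromosome 12 ranges that of Hsp90aa1 was 22.2% in the 295 cells and 28.5% in the 117 cells. The shared noise of Hspa5, 0.146, was also the highest among the members.

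Levels of the members were then compared across cells by Spearman correlation of scaled gene sums. Cells share the scaling to a common total and the lane, and the values are descriptions. The 36 pairs of members had a median rho of 0.08, beside 0.02 over all pairs of 6037 genes with a mean of at least 20. In all, 28 pairs were above 0, or 77.8%, beside 56.8% of all pairs, and 10 were above 0.2, a limit passed by 5.31% of all pairs.

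Hspd1 and Hspe1 formed the closest pair, with a rho of 0.56. Of all pairs of genes 0.0104% reached it, and each was the other's first gene among 6036. In single lanes the rho ran from 0.43 to 0.68. By allele it was 0.27 for 129 with 129 and 0.26 for CAST with CAST, against 0.21 and 0.23 for the crossed combinations, so the pair went together about as much between alleles as within them.

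Some other members had a rho above 0.2 with this pair or with each other. Of all genes, 15.0% had one with Hsph1, 14.5% with Hspe1 and 10.7% with Hspd1. It was 4.47% with Hspa8, 3.88% with Hsp90ab1 and 0.977% with Dnaja1. Hsp90aa1 had a rho of 0.03 with Hspd1, 0.09 with Hspe1 and 0.07 with Hsph1. Hspa8 had 0.11 with Hspe1 and 0.04 with Dnaja1. Hsph1 had a rho of 0.32 with Hspd1, 0.31 with Hspe1, 0.29 with Hspa8 and 0.25 with Hsp90ab1. Dnaja1 had 0.25 with Hspe1, 0.24 with Hsp90ab1 and 0.24 with Hspd1, the last of which was 0.15 when ranks were taken within lanes. In lane 6 the mean levels of Hspd1 and Dnaja1, 405 and 96.7, were the lowest of the 5 lanes. There the main Hspd1 row ENSMUST00000027123 averaged 357, against 469 to 504 in the other lanes, and the short row ENSMUST00000144077, which holds no allele information, averaged 37.7, against 10.4 to 13.7. Hsf1 was related to none of the others, with rho between -0.05 and 0.09.

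**Figure D5:**
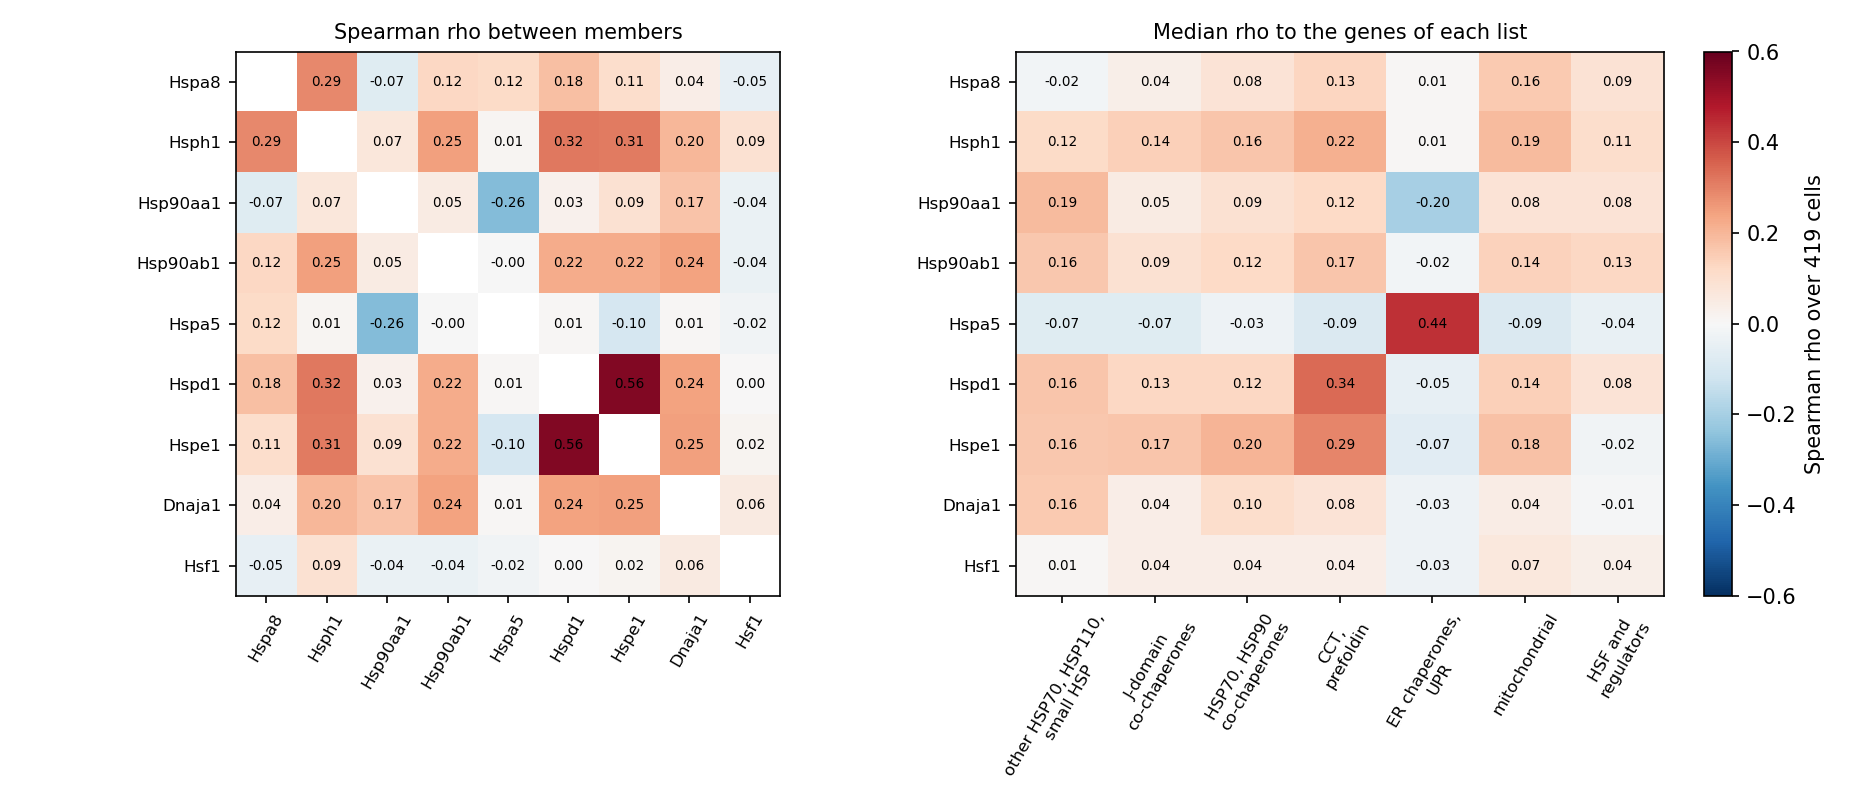
The left plot gives the Spearman rho over 419 cells between the 9 chaperone genes, and the right plot the median rho of each of them to the genes of 7 other chaperone and stress gene lists; red is positive and blue negative. Hspd1 with Hspe1 is the darkest square on the left at 0.56, and Hspa5 with the endoplasmic reticulum list on the right at 0.44.

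Hspa5 had no rho above 0.12 with another member and went with the genes of its own compartment. Of 17 endoplasmic reticulum chaperone and unfolded protein response genes at that level, 13 had a rho above 0.2 with Hspa5, where 2.05% of all genes did, and their median was 0.44. The closest 3 were Hsp90b1 at 0.76, Calr at 0.74 and Pdia6 at 0.67, which encode the reticulum's HSP90, its lectin chaperone calreticulin and a protein disulfide isomerase. Manf followed at 0.66, Pdia4 at 0.61, Pdia3 and Hyou1 at 0.54, and Xbp1, a transcription factor of the response, stood at 0.36. Atf4, a factor induced by several kinds of stress, was at -0.13, and the sensors Atf6 and Eif2ak3 were at 0.08 each.

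The correlation of Hspa5 and Hsp90b1 was as strong between alleles as within them: the rho was 0.50 for 129 with 129, 0.50 for CAST with CAST, 0.49 for Hspa5 from 129 with Hsp90b1 from CAST and 0.51 for the reverse. In single lanes it ran from 0.64 to 0.83. To the genes of the other 6 lists the median rho of Hspa5 was between -0.09 and -0.03. Hspa5 and Hsp90aa1 were the most opposed pair of members at -0.26. Within the 295 and the 117 cells of the chromosome 12 ranges, their rho was -0.16 and -0.22.

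For Hsp90aa1, the 3 most alike genes were Eif5 at 0.67, Zc3h14 at 0.67 and Papola at 0.65, all on distal chromosome 12. Their CAST values correlated with that of Hsp90aa1 at 0.67 to 0.69, and their 129 values at 0.08 to 0.14. Within the 295 cells of the lower range the rho over both alleles was 0.31, 0.29 and 0.19, and within the 117 cells of the middle range 0.16, 0.02 and 0.15. Hsp90aa1 and Hsp90ab1, the paralogs, had a rho of 0.05 over all cells, and 0.18 and 0.27 within those ranges.

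The chaperonin genes went together across compartments. Of 11 genes of the cytosolic chaperonin CCT and its partner prefoldin, 8 had a rho above 0.2 with Hspd1, where 10.7% of all genes did. They were the CCT subunits, from Cct6a at 0.52 to Cct5 at 0.25, while the prefoldin genes Pfdn1, Pfdn5 and Pfdn6 ran from -0.02 to 0.10. Of the same 11 genes 8 also passed with Hspe1, where 14.5% of all genes did, and 7 with Hsph1, where 15.0% did. Of 9 mitochondrial chaperones and proteases only Hspa9, which encodes the mitochondrial HSP70, at 0.49, and Yme1l1, at 0.25, passed with Hspd1.

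Several members had the same gene among their 3 most alike outside the set. Npm1, which encodes a nucleolar chaperone of histones, was among the closest 3 of Hspd1 at 0.49, Hspe1 at 0.44, Hsp90ab1 at 0.41 and Dnaja1 at 0.27. With ranks taken within lanes, it was 0.40 for Hspd1 and 0.19 for Dnaja1. Outside the members, the closest of Hspd1 were Cct6a, Npm1 and Hspa9, and those of Hspe1 were H2afz, Npm1 and Rpl36al, at 0.43 to 0.44. Hsp90ab1 was followed by Npm1 and the ribosomal protein genes Rpl4 and Rpl3, at 0.38 to 0.41. For Dnaja1 they were H2afz, Npm1 and Nudc, at 0.26 to 0.27. Hsph1 was most like Gsta4, Actl6a and Usp28, at 0.41 to 0.43, and Hspa8 most like Senp3, the HSP110 gene Hspa4 and Abcf2, at 0.31 to 0.38. Hsf1 was nearest to Ipo4, L3mbtl2 and Eef1d, at 0.24 to 0.28.

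Some measures of the cells moved with members to a small degree. The naive and core pluripotency sum had a rho of 0.28 with Hsph1, 0.25 with Hspe1, 0.24 with Hsp90aa1 and -0.13 with Hspa5. The mitochondrial share of a cell's value had 0.24 with Hspd1 and 0.23 with Hspe1. The neural list had -0.32 with Hsp90aa1 and 0.26 with Hspa5, and the trophectoderm list 0.31 with Hsp90aa1, and in both lists 3 of 6 genes were at 0 in the median cell. Summed scores per cell ran from 1.05 to 888 for the neural list and from 0 to 982 for the trophectoderm list. The part of these in the correlations above was not tested.

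The wider chaperone genes gave a background for the members. The median 129 share of the 7 lists ran from 47.8% for the HSP70 and HSP90 co-chaperones to 52.7% for the other HSP70, HSP110 and small HSP genes. Past 2-fold on the CAST side were Hspa2 at 30.1% ± 5.52, an HSP70 gene on chromosome 12, and Dnajb5, at 23.8% ± 2.25. On the 129 side were Dnajb6 at 71.5% ± 0.442, a J-domain gene, and Pfdn6 at 71.3% ± 3.11.

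Among 12 measured genes of the other HSP70, HSP110 and small HSP list, the next extremes of share were Hspa12a at 41.2% ± 9.21, Hspb11 at 60.7% ± 4.28 and Hspb6 at 65.7% ± 5.38. Noise residuals ran from -0.62 for Hspa9 to 1.00 for Hspb8, a small heat shock protein. Among 15 J-domain genes they were Dnajc2 at 45.1% ± 2.60 and Dnajb4 at 55.8% ± 3.24, with residuals from -0.71 for Dnajc5 to 0.78 for Dnajb6. Among 19 HSP70 and HSP90 co-chaperones the shares ran from 35.5% ± 4.36 for Bag5, also on chromosome 12, and 41.9% ± 2.09 for Unc45a to 54.5% ± 1.94 for Sugt1 and 56.2% ± 0.913 for Ptges3, which encodes the HSP90 partner p23. Their residuals ran from -1.64 for Ppid to 1.08 for Bag6.

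In the CCT and prefoldin list, 10 genes were measured for both alleles. The other extremes were Pfdn2 at 43.9% ± 2.88, Pfdn4 at 48.6% ± 3.22 and Pfdn1 at 60.6% ± 1.51, and residuals ran from -1.04 for Pfdn1 to 0.11 for Pfdn6. Among 22 genes of the endoplasmic reticulum list they were Pdia3 at 42.3% ± 2.35, Atf4 at 44.5% ± 2.04, Sil1 at 55.5% ± 3.21 and Dnajc3 at 60.4% ± 4.76. There the residual was highest in Hsp90b1 at 1.1 and lowest in Manf at -1.88, and 11 of 21 were above 0. Hsp90b1 thus lay, with Hspa5, above the running median. So did Hyou1 at 0.87, Calr at 0.79 and Pdia3 at 0.58, while Pdia4 at -0.07, Pdia6 at -0.13 and Manf lay below it.

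Among 10 mitochondrial genes the shares ran from 43.8% ± 1.72 for Grpel2 and 44.9% ± 1.25 for Yme1l1 to 54.9% ± 1.66 for Lonp1 and 57.1% ± 0.764 for Hspa9. Residuals ran from -1.70 for the protease gene Clpp to 0.86 for Grpel1, which encodes a nucleotide exchange factor of Hspa9. Among 8 heat shock factors and regulators of HSF1 the extremes were Fkbp4 at 47.0% ± 0.609, Ep300 at 47.6% ± 2.5, Crebbp at 53.9% ± 2.12 and Ptges3. Residuals there ran from -1.33 for Hsbp1, a binding partner of HSF1, to 1.31 for the deacetylase gene Sirt1. Hsf1 itself had no rho above 0.2 with any of the 8 genes, where only 0.414% of all genes had one.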

How the data were processed

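The authors deposited 2 tables, 1 per allele, of 117762 transcripts in 419 cells, and the deposited values are scores: whole numbers with nearly common totals, not raw counts. Per the submitters' processing notes, Bowtie 1.1.2 and mm10 were used, in roles not stated. The allele assignment and scaling are not given in the sources used here. Each row was joined to GENCODE vM21, and 0.360% of all values stayed unmatched. Rows of a gene were summed. A gene was measured with a pooled score of at least 1000, a value in at least 10% of cells and at least 50% of it in rows whose alleles differed; ENSMUST00000134967, ENSMUST00000149189 of Hsp90aa1 and ENSMUST00000144077 of Hspd1 held no allele information. Noise needed a mean of at least 5 per allele and a share of 10% to 90%, with a running median of 201 genes, and cells were scaled to the mean total. Motifs were sought on both strands. Beside all members, the text names the 3 most alike genes (mean at least 50) and the extremes of each list. The members, lists and limits were chosen with earlier results of these data known. Doublets were not sought, and all 419 cells were kept; 0 cells held the values of another. Calculations used Python 3.11.15, numpy 2.4.6, pandas 2.3.3, scipy 1.17.1 and matplotlib 3.10.9, and were tested on simulated data.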

Additional observations from a re-analysis of the deposited data

How the results depend on the processing

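Of 136 alternative values of 15 results, 118 kept their direction and moved by less than the SD over lanes, or by less than 1.5 times for a count. Many of the alternatives only leave out 1 lane, and such a value can hardly move by an SD over single lanes. Some others, such as no minimum on the pooled score, repeat the main value. The count of 118 therefore does not measure how firm the results are. With the row of highest score in place of all rows, the 129 share was 48.7% for Hspa8, 17.6% for Hsph1, 34.4% for Hsp90aa1, 47.5% for Hsp90ab1, 48.9% for Dnaja1, and 48.1% for the median member, and Hspa5 turned to the other side of balance at 49.8%. The count past 2-fold was then still 1, but the gene was Hsph1 and no longer Hsp90aa1. With the mean of the shares per cell, Hsp90aa1 was at 36.0% and 0 genes passed 2-fold. Leaving out each lane in turn gave Hspa5 49.9% to 51.6%, the lowest without lane 3, so its side is not settled. The median rho of the members was 0.19 with Pearson r of log2(score + 1), 0.12 without scaling of cells and 0.0304 with the row of highest score. It was 0.0604 without 11 cells (the lowest pluripotency sum and the 10 most unusual totals) and 0.11 without Hsp90aa1, both chosen after seeing the data. Pearson r of Hspd1 and Hspe1 was 0.75, and the rho without lanes in turn was 0.51 to 0.60. The difference in Hsp90aa1 share between the lower and the middle chromosome 12 range was -25.0 points, -25.3 to -24.6 without lanes in turn, and -11.5 with a split of cells at the median distal share, which puts cells of the lower range on both sides. In the noise residuals, Dnaja1 turned to 0.34 and Hspa8 to -0.12 with the row of highest score, where Hsph1 was at 2.32. The median residual of the members, 0.37, was 0.22 within the 295 cells of the lower chromosome 12 range, -0.61 within the 117 cells of the middle range and 0.27 without Hsp90aa1, alternatives chosen after seeing the data. No paired analysis was possible because the cells form 1 group with no second group to pair it with; the alleles were compared within each cell. Scores hide the depth in reads, so the counting error of a low gene such as Hsf1 cannot be given.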
